A study of Mus musculus with 24 samples.

Results

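The 10 genes described here are transcription factors or nuclear regulators of the immediate-early class: Fos, Fosb, Jun, Junb, Egr1, Egr2, Egr3, Ier2, Atf3 and Nr4a1. Their 14 array probes were found by matching the RefSeq accession of each probe to the gene symbol, out of 22911 symbols that could be named on the array. The set was chosen by measured values of these same arrays, namely the log2 difference between diets within males, females and ovariectomized females, so those differences are given as a description without a test. Fosb and Junb had 2 probes each and Egr3 had 3, and a gene was read from its brightest probe unless another is named.

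The arrays carried colon RNA of C57BL/6J mice, bought at 7 weeks of age, in 6 groups of 4 arrays. By the methods, the tissue kept for the arrays was distal colon. The groups were males on a low-fat diet (M + LFD), males on a high-fat diet (M + HFD), females on each diet (F + LFD and F + HFD) and ovariectomized (OVX) females on each diet (F(OVX) + LFD and F(OVX) + HFD). Males and intact females had sham surgery, and ovariectomy removes the main source of estrogen. The diets supplied 10 and 45 kcal% fat for 14 weeks. All 6 groups, the low-fat controls included, received azoxymethane (10 mg/kg), a carcinogen, and then 3 cycles of 1.5% dextran sulfate sodium, which injures the colon lining. The mice were killed 75 days after azoxymethane and no untreated mice are among these samples. The methods chose the mice nearest to their group's average body weight. The pieces were whole tissue, in which fewer cells of a type and less RNA per cell cannot be told apart.

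Immediate-early genes are transcribed within minutes of a stimulus, without new protein synthesis, because the factors that switch them on (SRF with its ternary complex partners, and CREB) are already present and are activated by kinases such as ERK, p38 and JNK. Their products, among them the FOS and JUN proteins that pair as AP-1 and the EGR zinc finger proteins, then switch on later genes, while phosphatases and RNA-destabilizing proteins induced with them end the response. In the colon they are induced by growth factors, cytokines, wounding and mechanical stretch.

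Promoter sequence is shown for 5 members that held a motif of interest in their windows, so that some elements through which such stimuli are known to act can be seen. RefSeq promoter windows of 300 bases (250 before the transcription start and 50 from it, build GRCm38.p6) were listed for 7 of the 10 genes, namely Fos, Fosb, Jun, Junb, Egr2, Atf3 and Nr4a1. Capitals mark TGACG, the half-site of the cyclic AMP response element bound by CREB and ATF proteins, on either strand, and in Egr2 the CArG box bound by SRF. The Fos and Junb lines hold the 120 bases before the start, at chr12:85473770-85473889 (plus strand) and chr8:84978749-84978868 (minus strand). The Nr4a1, Fosb and Egr2 lines hold 30 bases around the motif, in the same order at chr15:101266766-101266795 (plus strand), chr7:19310086-19310115 (minus) and chr10:67537484-67537513 (plus).
Fos: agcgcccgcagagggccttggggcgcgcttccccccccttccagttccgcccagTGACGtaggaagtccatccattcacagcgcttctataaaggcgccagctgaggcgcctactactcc
Junb: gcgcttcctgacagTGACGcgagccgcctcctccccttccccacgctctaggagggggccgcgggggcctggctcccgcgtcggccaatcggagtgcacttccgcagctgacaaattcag
Nr4a1: cgggccgtgtgCGTCAgtggcgcccccgcc
Fosb: gagttgcgggTGACGcaagcgcgggggcgg
Egr2: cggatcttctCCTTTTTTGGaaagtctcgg

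TGACG, searched on both strands, lay in the windows of 6 of the 7 genes (Fos, Fosb, Junb, Egr2, Atf3 and Nr4a1) and in 20.8% of all 32851 windows. Nr4a1 held it 4 times, with first bases at -233, -213, -69 and -40 from the start. The CArG box, counted at -72 in the Egr2 stretch shown, lay in the windows of 1 gene of the 7 and in 1.63% of all windows. GCGNGGGCG, the motif bound by the EGR proteins themselves, lay in Fosb and Nr4a1 and in 5.55% of all windows. Neither TGACGTCA (1.79% of all windows), the full element that contains TGACG, nor TGANTCA (7.81%), the AP-1 site, was in any of the 7. These are matches of letters within 1 window for 6 genes and 5 windows for Egr2, of which 4 held the CArG box, and say nothing of binding.

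Signal on the arrays limited the precision of every value: an array saw from 40.5% to 61.9% of its probes well above background. The fewest were seen on F(OVX) + LFD replicate 3 (40.5%) and then on F + HFD replicate 2 (43.6%). Each sex or surgery group lay on 1 slide of 8 arrays, its LFD arrays all in row 1 and its HFD arrays all in row 2, so sex or surgery and slide, and diet and row, cannot be told apart. M + LFD replicates 1 and 2 were low in Hoxb13, a gene of the distal colon (2.18 and 5.05 on the log2 scale, against 12.61 to 14.87 on the other 22 arrays), so male results are also given without these arrays. A gene was called between diets when it changed 1.5-fold or more with an unadjusted limma p below 0.05, the thresholds of the study. At an adjusted p under 0.05, limma called 0 genes between diets within any sex or surgery group, and the methods' t-test called 0 as well. The unadjusted limma p was under 0.05 for 1247 genes in males (6.08% of those tested), 633 in females (2.87%) and 704 in OVX females (3.66%).

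Of the 10 members, 9 were well above background on all 24 arrays, and Egr3 was not. Levels below are quantile-normalized log2 signals, and because probes differ in brightness they are compared between arrays and not between genes. Egr3, a relative of Egr1, was well above background on 0 of 4 arrays in M + LFD, 1 in M + HFD, 2 in F + LFD, 3 in F + HFD, 2 in F(OVX) + LFD and 2 in F(OVX) + HFD by its brightest probe, which read between 2.81 and 6.43. Its other probes were well above background on 1 and 0 of the 24 arrays, and no fold change is given for it.

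**Figure D1:**
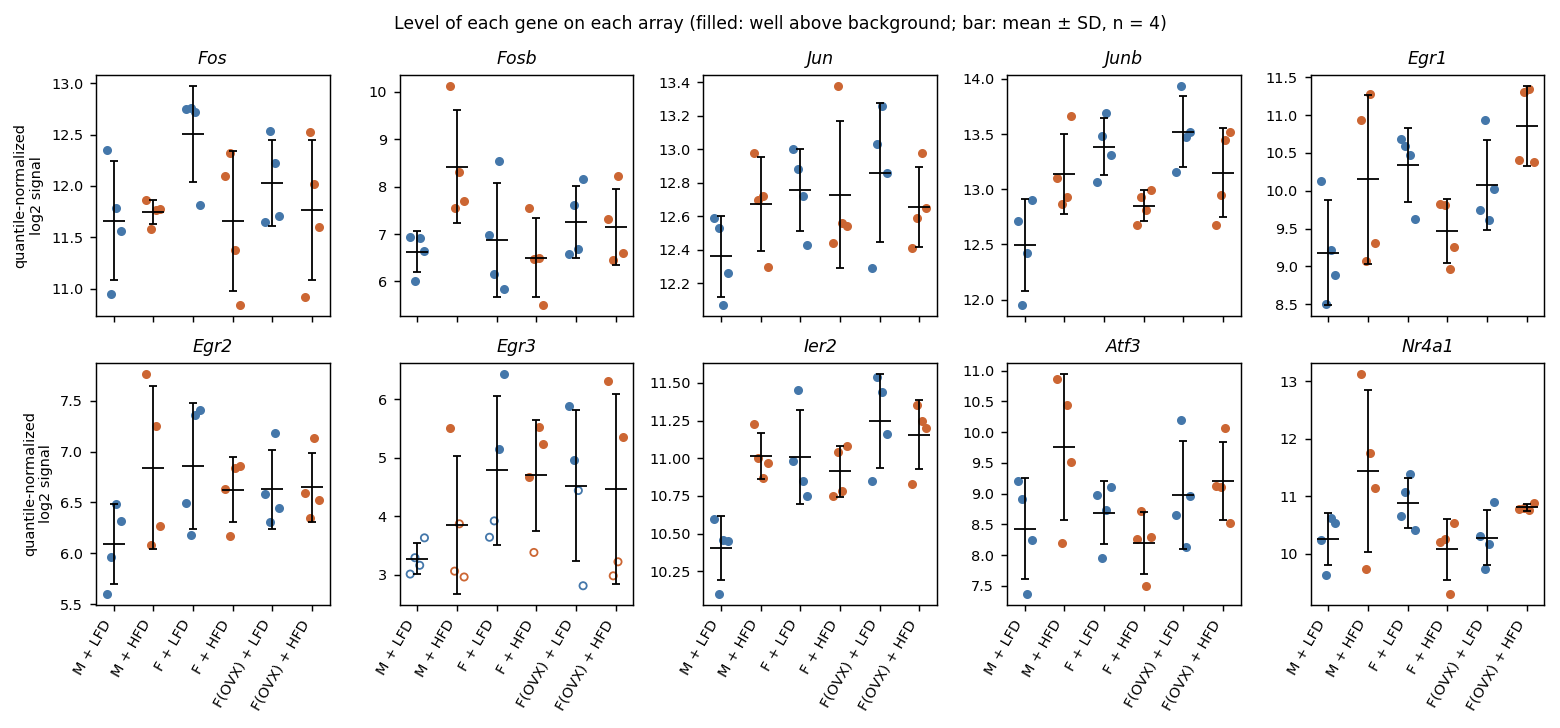
Each panel plots 1 gene: the vertical axis is the quantile-normalized log2 signal of its brightest probe and the horizontal axis the 6 groups, with LFD arrays in blue, HFD arrays in orange, open circles for arrays not well above background and black bars for the mean ± SD (n = 4). Ier2 and Fosb in M + HFD lie above all 4 M + LFD arrays, and Junb in F + HFD lies below all 4 F + LFD arrays.

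In males, the mean of every one of the 9 measured members was higher on HFD than on LFD, by 0.09 (Fos) to 1.79 (Fosb) on the log2 scale with a median of 0.75 (0.70 with Egr3), against a median of 0.01 over all genes tested and 52.2% of them higher. Fosb, Ier2 and Junb, 3 of the 9, were called higher, beside 2.46% of all 20511 genes, and none was called lower, beside 1.78%. By the methods' t-test Junb was not called and the other two were. Since these differences chose the set, nothing is read from that count. All 4 HFD arrays lay above all 4 LFD arrays for Fosb and Ier2, beside 1.65% of all genes.

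Fosb, which encodes a FOS family partner of the JUN proteins, differed most. Its levels (NM_008036) were 6.94, 6.02, 6.91 and 6.65 in M + LFD and 10.13, 7.54, 8.31 and 7.70 in M + HFD, with replicate 1 of M + HFD far above the rest. The difference was 1.79 ± 0.63 (SE), or 3.45-fold, and 1.22 without that replicate. The SE of a member's diet difference is taken from the SDs of both groups, and is not limma's SE behind the calls. The second Fosb probe was well above background on 1 of the 24 arrays, again M + HFD replicate 1 (4.39).

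Ier2, a short-lived nuclear protein gene of the immediate-early class, had the most even difference. It read (NM_010499) 10.60, 10.10, 10.46 and 10.45 in M + LFD and 11.23, 11, 10.87 and 10.97 in M + HFD. The groups were 0.27 apart at their nearest arrays, and the difference was 0.61 ± 0.13 (SE), or 1.53-fold.

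Junb, an AP-1 subunit that often restrains JUN, differed by 0.65 ± 0.27 (1.56-fold) by its brighter probe (NM_008416). Its values were 12.71, 11.95, 12.42 and 12.90 in M + LFD and 13.10, 12.87, 12.93 and 13.66 in M + HFD, with 1 LFD array above the lowest HFD array. By the dimmer probe all 4 HFD arrays (6.75 to 7.22) lay above the LFD arrays (5.83 to 6.59), with a difference of 0.69 ± 0.19.

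The stress-induced factor Atf3, the orphan nuclear receptor Nr4a1 and the zinc finger factor Egr1 had large mean differences carried by some of the arrays. Atf3 (NM_007498) read 9.21, 8.91, 7.37 and 8.24 on LFD and 10.87, 8.19, 10.44 and 9.52 on HFD, a difference of 1.32 ± 0.72. Nr4a1 (NM_010444) read 10.23, 9.63, 10.62 and 10.53 on LFD and 13.12, 9.74, 11.75 and 11.14 on HFD, a difference of 1.18 ± 0.74. Egr1 (NM_007913) read 10.13, 8.5, 9.22 and 8.88 on LFD and 10.94, 9.07, 11.28 and 9.31 on HFD, a difference of 0.97 ± 0.66. In each of the genes M + HFD replicate 2 read within the LFD values, and none of them was called. Without M + HFD replicate 1 the difference was 0.62 for Nr4a1 and 0.95 for Atf3, and without M + HFD replicate 3 it was 0.59 for Egr1. Without M + HFD replicate 2, 7 members were called higher, beside 3.43% of all genes. Fosb alone was called without M + HFD replicate 1 (1.74% of all genes higher) or without M + LFD replicate 2 (1.59%).

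The remaining members were not called either. Egr2, a close relative of Egr1, differed by 0.75 ± 0.45 (NM_010118; 5.6 to 6.48 on LFD, 6.08 to 7.76 on HFD), and by 0.44 without M + HFD replicate 1. Jun, the central AP-1 subunit, differed by 0.31 ± 0.19 (NM_010591; 12.07 to 12.59 and 12.30 to 12.98). Fos, the best known of the class, differed by 0.09 ± 0.30 (NM_010234), and its HFD values (11.58 to 11.86) lay inside its LFD range (10.95 to 12.35). Without M + LFD replicate 2 the Fos difference was -0.15.

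Without M + LFD replicates 1 and 2, the male differences of the 9 measured genes had a median of 0.56, and all 9 means were still higher on HFD. Fosb was then 1.64, Atf3 1.95, Egr1 1.1, Nr4a1 0.86, Ier2 0.56 and Junb 0.48. Only Atf3 was called, beside 1.61% of all genes called higher, with 2 LFD arrays left.

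**Figure D2:**
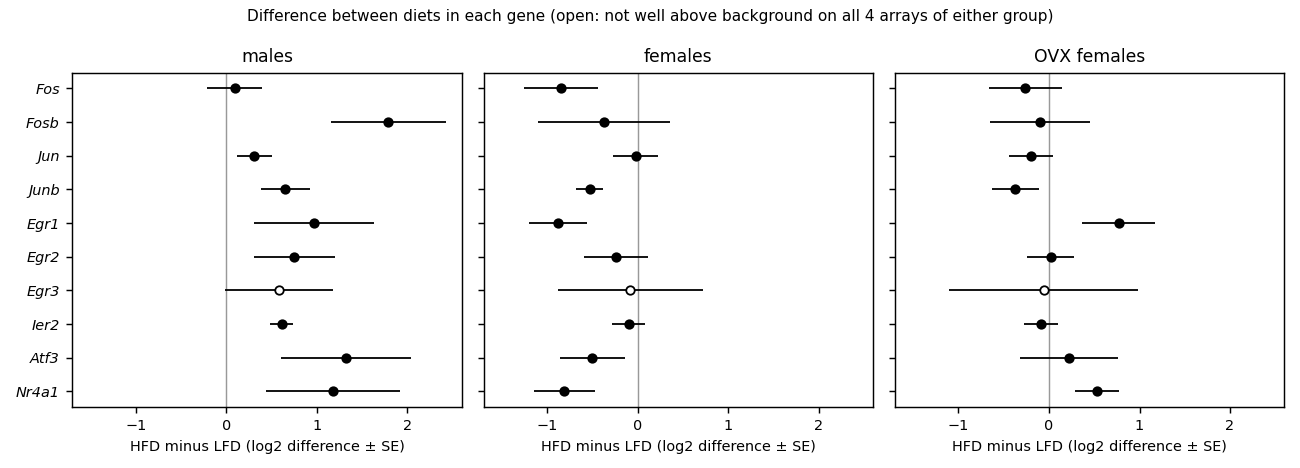
The horizontal axis is the mean log2 difference HFD minus LFD for each of the 10 genes on the vertical axis, in each sex or surgery group. Bars are the standard error taken from the SDs of both groups (8 arrays per panel), which is not limma's. In males the 9 measured genes lie between 0.09 and 1.79, in females between -0.88 and -0.02 (Jun, which is 0.11 when arrays are scaled to their 75th percentile), and in OVX females on both sides of 0. Egr3 is drawn open.

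In intact females the means of all 9 measured members were lower on HFD, by 0.02 (Jun) to 0.88 (Egr1) on the log2 scale with a median of -0.50 (-0.44 with Egr3), against a median of 0 over all genes, of which 50.6% were lower. Jun was 0.11 higher when each array was scaled to its 75th percentile instead, and leaving out 1 array turned Fosb to 0.18 (without F + LFD replicate 3), Jun to 0.07 (without F + HFD replicate 1) and Ier2 to 0.05 (without F + LFD replicate 2). Egr1, Fos and Nr4a1, 3 of the 9, were called lower, beside 0.797% of all 22083 genes, and none was called higher, beside 0.398%. The count again follows from how the set was chosen. Fos was not called with 75th percentile scaling or with no filter on dim probes, and by the methods' t-test Egr1 alone was called. Same-numbered female arrays deviated together to a degree (r = 0.23 to 0.51), and the labels do not call them pairs. With the number as a block Egr1 and Fos were called and Nr4a1 was not. The calls over all genes then went from 264 to 587.

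Egr1 read 10.68, 10.59, 10.47 and 9.62 in F + LFD and 9.82, 9.81, 8.97 and 9.25 in F + HFD, a difference of -0.88 ± 0.32. The LFD array of replicate 4, lay among the HFD values. Fos read 12.75, 12.76, 12.72 and 11.81 on LFD and 12.10, 12.32, 11.38 and 10.84 on HFD, a difference of -0.85 ± 0.41. The same F + LFD replicate 4 was the low LFD array for Fos, and the groups overlapped through it alone. Nr4a1 read 10.66, 11.07, 11.39 and 10.41 on LFD and 10.20, 10.26, 9.30 and 10.53 on HFD, a difference of -0.81 ± 0.34.

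Junb was the member whose female groups did not overlap, beside 0.706% of all genes with every HFD array below every LFD array. Its brighter probe read 13.07, 13.48, 13.69 and 13.31 on LFD and 12.68, 12.93, 12.81 and 12.99 on HFD, a difference of -0.53 ± 0.15 that stayed under the fold threshold. Its dimmer probe read 6.80 to 7.65 on LFD and 6.16 to 6.68 on HFD, a difference of -0.67 ± 0.24. Atf3 differed by -0.50 ± 0.36, Fosb by -0.37 ± 0.73, Egr2 by -0.24 ± 0.35, Ier2 by -0.10 ± 0.18 and Jun by -0.02 ± 0.25, and the groups of each overlapped. Egr1 alone was called without F + LFD replicate 3 (0.955% of all genes called lower) or without F + HFD replicate 3 (1.83%).

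In OVX females the members did not share a direction: 4 of the measured means were higher on HFD and 5 lower (52.0% of all genes were higher), with a median of -0.09 (-0.07 with Egr3), and 0 members were called, beside 1.16% of all 19210 genes called higher and 1.02% called lower. Limma and the methods' t-test gave the same count of 0 members. Egr1 was the highest of them at 0.77 ± 0.40, with 9.74, 10.94, 9.61 and 10.02 on LFD and 10.41, 11.30, 11.34 and 10.38 on HFD. Nr4a1 followed at 0.53 ± 0.24, and its HFD values (10.77, 10.80, 10.76 and 10.88) were far closer together than its LFD values (10.30, 9.74, 10.16 and 10.90). At the other end Junb differed by -0.37 ± 0.26 and Fos by -0.26 ± 0.40. Egr1 passed the call with each array scaled to its 75th percentile, with normexp background correction, with only probes above background on all arrays of the fit, and with the replicate block.

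Across the 6 groups, M + LFD and F + HFD held the 2 lowest means for 8 of the 9 measured genes, Jun being the other. The highest mean was in M + HFD for Fosb, Atf3 and Nr4a1, in F + LFD for Fos and Egr2, in F(OVX) + LFD for Jun, Junb and Ier2, and in F(OVX) + HFD for Egr1. Of the 45 steps between neighbouring groups in these orders, 39 were smaller than the larger SD of both groups. The steps beyond it were F + LFD over F(OVX) + LFD in Fos, F(OVX) + HFD over M + LFD in Jun, F(OVX) + LFD over F + HFD in Egr1, F + HFD over M + LFD in Egr2 and Ier2, and F(OVX) + HFD over F(OVX) + LFD in Nr4a1. The range of group means was widest in Fosb (1.92) and narrowest in Jun (0.49).

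Sex and surgery, averaged over both diets, were not part of how the set was chosen and were tested with limma over all 24 arrays, with Benjamini-Hochberg adjustment over 22373 genes. Ier2 was lower in males than in OVX females, with a log2 difference of -0.49 ± 0.12 (limma adjusted p = 0.0271, means 10.71 ± 0.37 and 11.20 ± 0.26, SD of 8 arrays), and it was the 1 member called of 9, beside 1.35% of all genes called lower and 2.63% called higher. With normexp background correction Ier2 was not called (-0.41, limma adjusted p = 0.0559). The difference was -0.84 between the LFD groups and -0.14 between the HFD groups. Junb differed in the same direction by -0.52 ± 0.16 (limma adjusted p = 0.0768). Without M + LFD replicates 1 and 2 the Ier2 difference was -0.46 and the limma adjusted p 0.0965. Without M + LFD replicate 2, M + HFD replicate 3, F(OVX) + LFD replicate 2 or F(OVX) + HFD replicates 2, 3 or 4, left out singly, the limma adjusted p was 0.0506 to 0.0598, and without both arrays that saw the fewest probes the adjusted p was 0.0537 in the same test. Each sex or surgery group was 1 slide, so slide and group cannot be told apart.

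Between males and intact females 0 of the 9 members passed (smallest limma adjusted p = 0.287, for Ier2 at -0.25 ± 0.12), beside 1.84% of all genes higher and 0.666% lower. Fosb (0.84 ± 0.43), Atf3 (0.65 ± 0.38) and Nr4a1 (0.37 ± 0.33) were higher in males on average and the other 6 lower, by up to 0.38 (Fos). Between OVX and intact females 0 members passed (smallest limma adjusted p = 0.818), and neither did any gene of the array. There 1357 genes (6.07% of those tested) had an unadjusted limma p under 0.05. Among the 9 members, the largest differences between OVX and intact females were Atf3 at 0.65 ± 0.38 and Egr1 at 0.57 ± 0.32. Groups and slides cannot be told apart in either comparison.

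The members were followed array by array as the mean of the 9 measured genes, each set relative to its own mean over the 24 arrays. This level was -0.48 ± 0.26 in M + LFD, 0.37 ± 0.64 in M + HFD, 0.16 ± 0.27 in F + LFD, -0.32 ± 0.23 in F + HFD, 0.11 ± 0.28 in F(OVX) + LFD and 0.17 ± 0.30 in F(OVX) + HFD (SD, n = 4 each). M + HFD was the most spread group, with replicates at 1.12, -0.34, 0.60 and 0.09. The lowest array was M + LFD replicate 2 (-0.81), which is also 1 of the arrays low in Hoxb13.

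**Figure D3:**
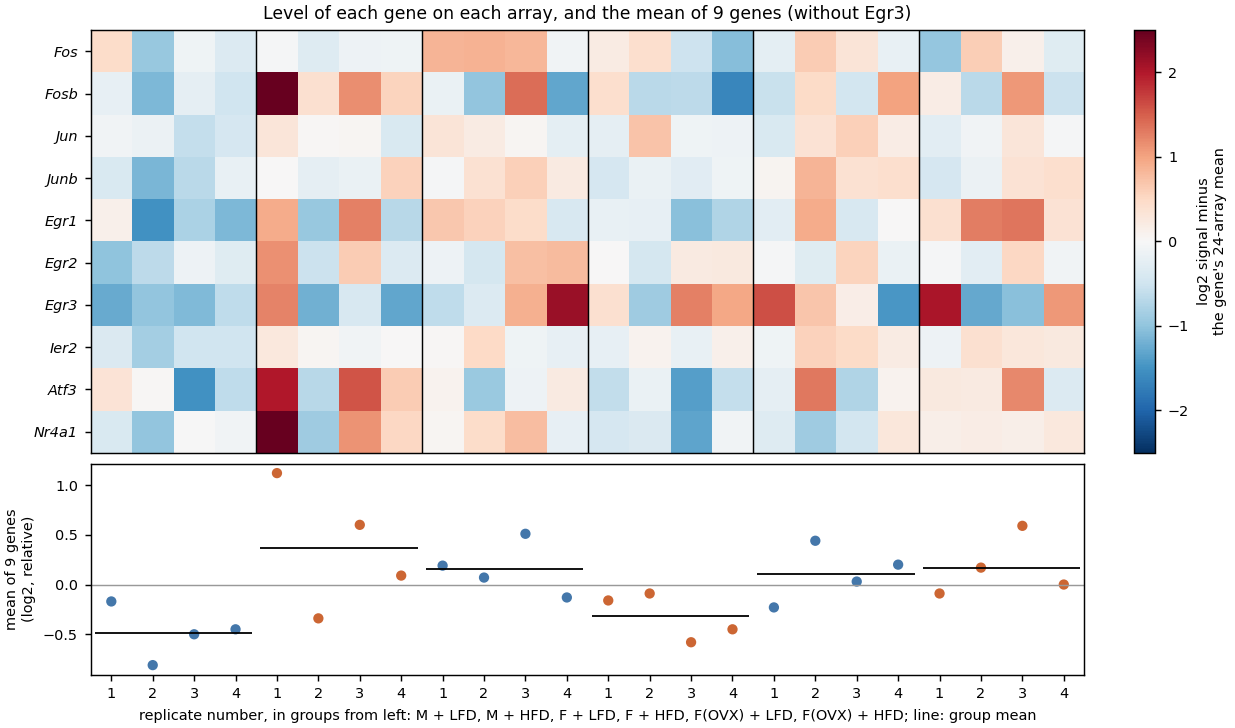
The upper panel colours each gene on each of the 24 arrays by its log2 signal minus its own mean over the arrays, with groups divided by black lines, and the lower panel plots the mean of the 9 measured genes per array, LFD in blue and HFD in orange with a line at each group mean. M + HFD replicate 1 is highest at 1.12 and M + LFD replicate 2 lowest at -0.81.

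With group means removed, 32 of the 36 pairs of the 9 members were positively correlated over the 24 arrays, with a median Pearson r of 0.30 and a range from -0.23 to 0.66. The closest pairs were Egr1 with Atf3 (0.66), Fos with Egr1 (0.65), Fos with Ier2 (0.60), Jun with Ier2 (0.55) and Fosb with Nr4a1 (0.55). Egr1 had the highest median r with the other members (0.47) and Egr2 the lowest (0.06), although Egr2 went with Nr4a1 at 0.51. Arrays share slide and signal strength, which can move genes together, so these values carry no test. With arrays scaled to their 75th percentile the median r was 0.21. The members' profile had r = -0.01 with the share of probes above background, -0.07 with the 75th percentile of the signal and -0.15 with its log2, and the part of signal strength was not tested.

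**Figure D4:**
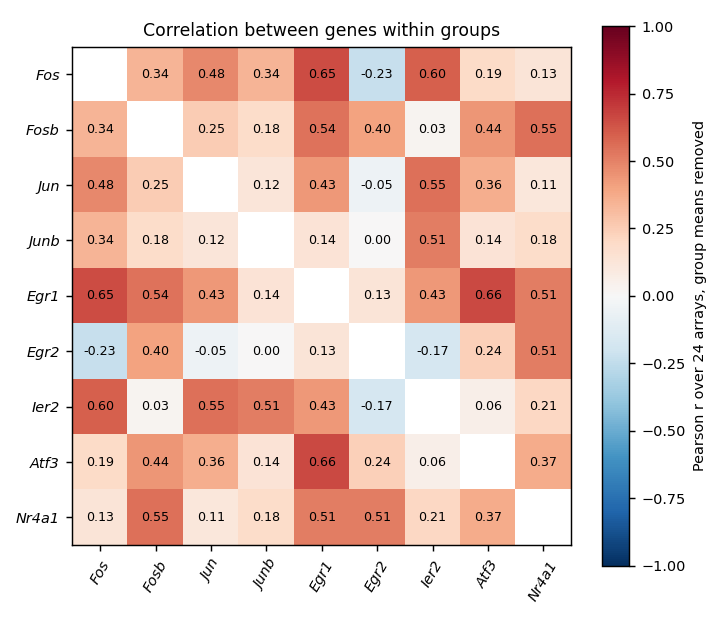
Each cell is the Pearson r of a pair of the 9 measured genes over 24 arrays after group means were removed, on a colour scale from -1 to 1. Egr1 with Atf3 (0.66) is the highest and Fos with Egr2 (-0.23) the lowest.

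Among 11870 other genes above background on all 24 arrays, those most like the profile of the members (each scaled to unit SD and averaged) were Utp14b (r = 0.71), Adamts1 (0.69), Pvr, Errfi1 and Rhot1 (0.68 each), n = 24 arrays with group means removed. Adamts1 encodes a secreted protease and Errfi1 a feedback inhibitor of the EGF receptor. The most opposed were Irf8 (-0.72), a transcription factor of myeloid and B cells, Tdpoz8 (-0.62), Jak3 (-0.60), a kinase of cytokine receptors in lymphocytes, Mmgt2 (-0.60) and Traf1 (-0.59). Over all genes ranked the median r was 0.01. Without M + LFD replicates 1 and 2 the same genes read between 0.64 and 0.75 and between -0.73 and -0.54. They were picked as the extremes of 11870 genes on these same arrays, so this is no independent check.

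Cell type markers were set beside the profile, as summed signals with group means removed. Smooth muscle markers, of which 7 of 8 were above background on all arrays, had r = 0.46 with the members, enteric neuron and glia markers 0.42, T cell markers (3 of 5) -0.42 and macrophage markers (5 of 5) -0.38, while B cell markers had -0.29, neutrophil markers -0.20, fibroblast markers -0.19, adipocyte markers 0.16, epithelium -0.15, mast cell markers 0.04 and endothelium 0.01. The summed smooth muscle level differed between diets by 0.05 (males), 0.42 (females) and 0.77 (OVX females), with ranges of 16.12 to 16.75 in M + LFD, 15.42 to 17.11 in M + HFD, 16.12 to 17.92 in F + LFD, 17.04 to 17.59 in F + HFD, 15.40 to 16.60 in F(OVX) + LFD and 16.47 to 17.67 in F(OVX) + HFD. In females it was therefore higher on HFD while the members were lower. Enteric neuron and glia markers, 1 of 6 above background on all arrays and none at background on all, differed by -0.70, 0.51 and 0.51, T cell markers by -0.42, -0.30 and -0.32, and macrophage markers by 0.11, -0.18 and -0.28. B cell markers differed by 0.77 (males), 0.25 (females) and -0.58 (OVX females), and adipocyte markers by -2.21, -0.35 and -0.02. Of the 4 adipocyte markers, 0 were above background on all arrays. In males Cidec differed by -3.06, Adipoq by -2.43, Plin1 by 0 and Lep by 0.28. In OVX females Adipoq differed by -2.24, Plin1 by -0.52, Cidec by 0.26 and Lep by 0.29. The summed neutrophil level, most of it Csf3r, differed by -0.03, -0.43 and 0.10, Cxcr2 was above background on no array, and S100a8 (-1.92) and S100a9 (-1.57) were lower on HFD in females and also in OVX females (-2.12 and -2.05). Singly, S100a8 (above background on 16 arrays) had r = -0.47 with the members' profile and S100a9 (on 22 arrays) -0.50. Csf3r had -0.17 and Cxcr2 -0.13. The part of these cell types in the members' values was not tested.

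Position along the gut was read from distal and anterior Hox genes. The summed distal level, most of it Hoxb13, differed by 4.71 in males through M + LFD replicates 1 and 2, with r = -0.04 with the members, while Hoxd12 (0.33) and Hoxd13 (0.26) had a higher r. The anterior Hox level differed by -2.70 in males, with r = 0.24, or 0.49 without these arrays. The part of position in the members' values was not tested.

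The rest of the pathway was read from 5 lists with 102 genes that hold none of the members, of which Atf7 and Nab1 had no named probe. In males 9 of the 90 tested were called higher on HFD and 0 lower, beside 2.46% and 1.78% of all genes, and 65 of the 90 means were higher with a median difference of 0.20. In females 5 of 93 were called lower and 0 higher, beside 0.797% and 0.398%, and 70 means were lower with a median of -0.13. In OVX females 2 of 90 were called lower and 0 higher, beside 1.02% and 1.16%, with a median of -0.05. Cxcl1, counted in males and in females, entered each test only through the diet group in which it is high. With genes above background on all arrays of a comparison the counts were 8 of 88 in males and 4 of 84 in females, without Cxcl1. Beside them, 2.24% of all genes were called higher in males and 0.402% lower in females. These lists were written with results of the arrays known. No gene of them had an adjusted p under 0.05 between diets in limma (smallest 0.798 in males, 0.992 in females and 1 among OVX females).

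AP-1 partners, the proteins that can pair with FOS or JUN, had a median difference of 0.22 (males), -0.15 (females) and -0.18 (OVX females) over 10 genes tested. Maff, a small MAF protein, was called higher in males (9.01 ± 0.53 against 8.11 ± 0.50, SD, n = 4, difference 0.90 ± 0.32). The SE of this and the other list differences is limma's. Batf3, an AP-1 factor of dendritic cells, was called lower in OVX females (6.64 ± 0.47 against 7.35 ± 0.28, difference -0.70 ± 0.25). Groups of both genes overlapped.

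Other immediate-early transcription factors had medians of 0.22 (males), -0.12 (females) and 0.07 (OVX females). Csrnp1 (9.76 ± 0.51 against 8.74 ± 0.45, 2.03-fold) and Bhlhe40, a repressor of the circadian clock (11.17 ± 0.64 against 10.21 ± 0.37, 1.95-fold), were called higher in males. Cebpd, a C/EBP factor of the acute phase, was called lower in OVX females without overlap (11.63 ± 0.36 against 12.39 ± 0.20, difference -0.76 ± 0.20).

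Feedback inhibitors, which end the response, had medians of 0.36 (males), -0.19 (females) and -0.10 (OVX females), over 27, 28 and 28 genes tested. Zfp36, an RNA-binding protein that destabilizes cytokine and immediate-early transcripts, was called higher in males (11.54 ± 0.35 against 10.88 ± 0.36) and lower in females (10.87 ± 0.55 against 11.48 ± 0.13), and neither pair of groups overlapped. Trib1, a pseudokinase, was called higher in males (0.80 ± 0.31). Socs3, an inhibitor of JAK-STAT signaling, was called lower in females by 0.92 ± 0.24 (9.88 ± 0.15 against 10.80 ± 0.49), and Btg2, an antiproliferative gene, by 0.66 ± 0.23, both without overlap. The female call of Zfp36 was lost with 75th percentile scaling, with normexp, with no filter on dim probes and by the methods' t-test. It was also lost when F + LFD replicate 1, 2, 3 or 4, or F + HFD replicate 1 or 2, was left out singly. The male call of Zfp36 was lost with normexp, and without M + LFD replicate 2 or 3 or M + HFD replicate 4. Whether the diet effect on Zfp36 differed between the sexes was not tested.

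Early effectors, the non-nuclear products of the response, had medians of 0.40 (males), -0.25 (females) and -0.07 (OVX females). Called higher in males were Arc, an endosomal protein best known from neurons (6.92 ± 0.67 against 5.36 ± 1.11, 2.94-fold), the neutrophil chemokine gene Cxcl1 (6.02 ± 1 against 4.52 ± 1.02), F3, which encodes tissue factor (11.83 ± 0.81 against 10.52 ± 0.39, 2.48-fold), and Rhob, a small GTPase (11.30 ± 0.42 against 10.47 ± 0.41, 1.78-fold). Arc and Rhob did so without overlap, and Cxcl1 was well above background on 2 of 4 M + LFD arrays. Called lower in females were Cxcl1 (3.74 ± 1.06 against 5.09 ± 0.31, with 1 of 4 F + HFD arrays well above background) and Ccn1, a matricellular protein gene (7.17 ± 0.32 against 8.12 ± 0.59). The upstream kinases and factors, such as Srf, Creb1 and the MAP kinases, had medians of 0.04, 0.02 and 0 with none called.

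**Figure D5:**
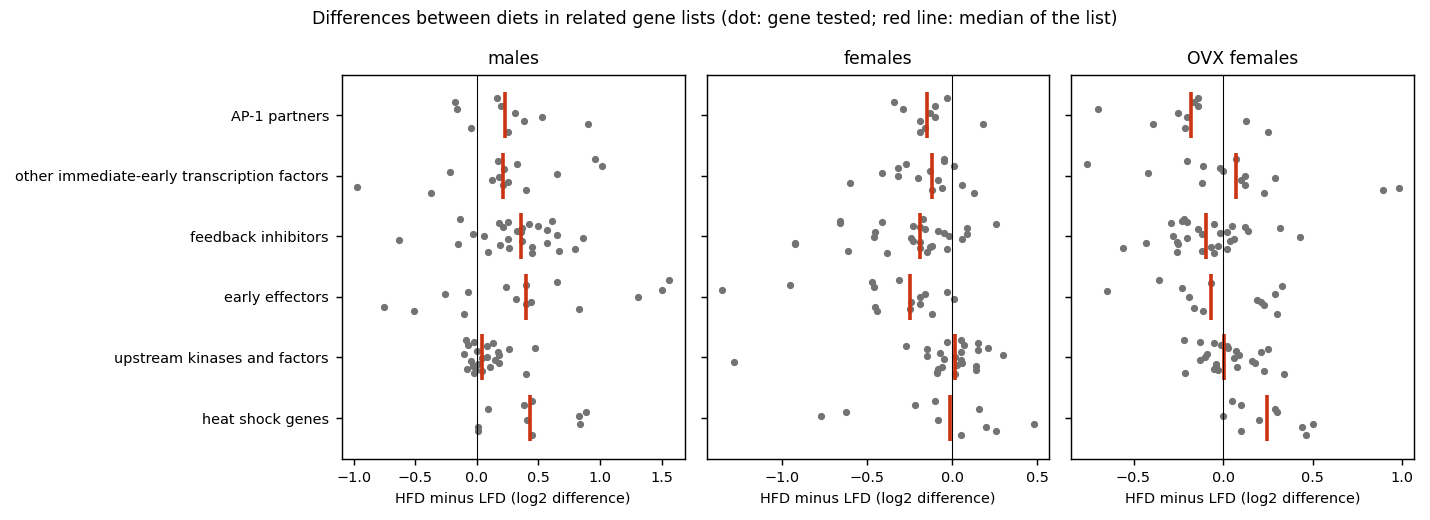
Each dot is a tested gene of a list, placed by its log2 difference HFD minus LFD on the horizontal axis with the list on the vertical axis, and red lines are list medians, in each sex or surgery group. The medians of the first 4 lists lie between 0.22 and 0.40 in males and between -0.25 and -0.12 in females, and that of the upstream kinases and factors lies near 0 in all panels.

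Without M + LFD replicates 1 and 2, 6 of 90 related genes were called higher in males and 0 lower, beside 1.61% and 2.6% of all genes, and the median difference was 0.15. Maff, Csrnp1, Bhlhe40, Zfp36 and Rhob were among them with Gadd45a, a growth arrest gene, while Arc, Cxcl1, F3 and Trib1 were not. Leaving out M + HFD replicate 2 raised the male count to 19, beside 3.43% of all genes called higher. Leaving out M + LFD replicate 2 lowered it to 4, beside 1.59%. With the replicate block 6 of 93 genes were called lower in females, the same 5 and Myc, beside 1.68% of all genes.

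Between sexes, over both diets, 1 of 93 related genes passed: Mafk was higher in males than in intact females (0.63 ± 0.15, limma adjusted p = 0.0317), beside 1.84% of all genes. Elk1, a ternary complex factor that works with SRF, was higher in males than in OVX females (0.26 ± 0.06, limma adjusted p = 0.0217), beside 2.63%. Neither passed without M + LFD replicates 1 and 2, and 0 related genes passed between OVX and intact females. Slide and group cannot be told apart here either.

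Heat shock genes, which are induced by stress on proteins, were listed separately. In males all 10 means were higher on HFD with a median of 0.43, and Hspb1 was called (13.20 ± 0.38 against 12.36 ± 0.46, 1.79-fold, without overlap). The medians were -0.01 in females and 0.24 in OVX females with none called, and the median r of these genes with the members' profile was -0.02. The part of such stress in the members' values was not tested.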

How the data were processed

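Mouse colon RNA was hybridized to 24 Agilent one-colour (Cy3) arrays, 6 groups of 4. Per the labels the RNA was polyA RNA from colon. The methods state 5 mice per group for the arrays, and 4 per group are labelled. The authors extracted the array signals with Agilent Feature Extraction 11.0.1.1. The deposited files hold its processed signal intensity per spot, already background-corrected, with a flag for signal well above background. No spot was saturated.

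Control spots and outlier spots were left out, spots of a probe were averaged, and log2 intensities were quantile-normalized over 24 arrays (limma 3.58.1, R 4.3.3). Of 56605 probes, 32994 (58.3%) were named through their RefSeq accession. A gene was read from its brightest probe. Genes were tested if well above background on every array of at least 1 group of the fit, by limma on 8 arrays for diet and on 24 for sex or surgery, and the methods' t-test was run as an alternative. The number of arrays limits the precision. The methods state that the arrays used separate mice of each group, but the labels do not name the mouse of each array. The p-values measure the spread between these arrays. Arrays left out were not followed by a new normalization. The fits were tested on simulated data.

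The members and lists were chosen with earlier results of these data known. Named genes are the members, up to 5 called genes per list and comparison with the largest differences, and the 5 genes most and least like the members' profile. Same-numbered female arrays deviated together (r = 0.25, 0.39, 0.51 and 0.23, each LFD array with its HFD array in the same slide column). Replicates 2 and 3 matched their own number best and replicates 1 and 4 did not, so the pairing is uncertain. Alternatives were another scaling, background correction, filters, the mean of all probes, the replicate block and arrays left out.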

Additional observations from a re-analysis of the deposited data

Results flagged for a closer look

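Fos in F + LFD replicate 4 read 11.81, far from the other arrays of its group (12.72 to 12.76). Jun in F + HFD replicate 2 read 13.38, far from the others (12.44 to 12.56), and this array had few probes above background. In 60 checks of a gene in a group of 4 arrays, chance flags about 1 in 20 groups.

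The dimmer Junb probe was higher on HFD in males (0.69, every HFD array above every LFD array) and lower in females (-0.67, every HFD array below), so that the diet differences lie 1.36 apart on the log2 scale. This difference between the sexes was not tested, since it enters the choice of the genes.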

How the results depend on the processing

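All 420 recomputed diet differences of single members moved by less than 1 SD. Many of them left out 1 array, which moves a group mean by less than 1 SD whatever the values are. That limit therefore says nothing about stability when 1 array is left out. Some signs did change then, as given above for Fos in males and for Fosb, Jun and Ier2 in females. The calls also changed with the processing. For diet, all genes called numbered 870 (males), 264 (females) and 418 (OVX females), against 567, 82 and 269 with normexp, 484, 125 and 210 by the methods' t-test, 629 (females) and 841 (OVX females) with no filter, 156 (females) with probes seen on all arrays, 587 (females) with the replicate block and 710 (OVX females) without the 2 arrays that saw the fewest probes. Of the female calls 33.3% were higher, against 23.9% with 75th percentile scaling, 20.7% with normexp, 43.2% with no filter, 51.3% with probes seen on all arrays and 56.4% without F + LFD replicate 3, and of the male calls 57.9%, against 38.2% without M + LFD replicates 1 and 2. Members called in OVX females were 1 in place of 0 with 75th percentile scaling, normexp, probes seen on all arrays and the replicate block. Members called in females were 1 by the t-test, and in males 1 without M + LFD replicates 1 and 2. Between males and OVX females 2 members were called with the mean of all probes, and 0 without either pair of arrays. There normexp called Junb (-0.59) and not Ier2 (-0.41). The median r of pairs was 0.21 with 75th percentile scaling and 0.28 without M + LFD replicates 1 and 2.

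Leaving out 1 array gave 583 to 1498 calls in males, 165 to 735 in females and 219 to 710 in OVX females, with 1 to 7, 1 to 3 and 0 to 1 members called. The members' median stayed at 0.58 to 0.92 in males and -0.56 to -0.29 in females, and went from -0.13 to 0.12 in OVX females, above 0 without F(OVX) + LFD replicate 2 (0.01), F(OVX) + HFD replicate 1 (0.02) or F(OVX) + HFD replicate 2 (0.12). Between males and OVX females 0 to 2 members were called.

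The counts of related genes were recomputed by a choice made after seeing the data. In females they were 3 with normexp and 3 without the arrays of fewest probes. Between males and intact females they were 2 with normexp, 0 with no filter, 2 with the replicate block and 0 without M + LFD replicates 1 and 2. Between males and OVX females they were 0 with 75th percentile scaling, 2 with normexp, 2 with probes seen on all arrays, 0 with the mean of all probes, 3 without the arrays of fewest probes and 0 without M + LFD replicates 1 and 2. Leaving out 1 array gave 4 to 19 (males), 3 to 6 (females), 1 to 5 (OVX females), 0 to 2 between males and intact females and 0 to 3 between males and OVX females. The replicate numbers of males (r from -0.22 to 0.06) did not pair the arrays. In OVX females 3 of 4 pairs had r = 0.21 to 0.31, each the best match of its number. Replicate 2 had -0.08, so the pairing is uncertain there as well. With the block 4 male members were called in place of 3. Other causes of these changes were not tested.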
